A study of Mus musculus with 6 samples.

Results

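The EGF receptor family, its ligands and its feedback inhibitor were examined in mouse tongue epithelium, as the 10 genes of the deposited table with the symbols Areg, Ereg, Hbegf, Tgfa, Btc, Epgn, Egfr, Erbb2, Erbb3 and Errfi1. They were chosen by name, and each matched 1 of the 55421 rows of the table. The series holds 6 mice. The 3 control mice (IRE1F/F, written WT here) carried floxed Ire1α alleles and no Cre, and their 3 littermates (K14CreERT2 IRE1 F/F, written KO) carried the same floxed alleles plus a Cre that tamoxifen activates, driven by the keratin 14 promoter of basal keratinocytes. Ire1α (gene Ern1) detects misfolded proteins of the secretory pathway, and the study asked what its loss does to renewal and differentiation of this tissue. All 6 mice were injected with tamoxifen daily for 4 days and killed on day 5, so the groups share the floxed alleles and the drug and differ in the presence of Cre. Ages are not stated in the labels. The tongue surface was loosened with protease and collagenase for 10 minutes at 37 °C, peeled off and profiled with a 3'-end mRNA kit (QuantSeq), which reads each mRNA once, close to its poly(A) end. Values are the authors' normalised read counts, and n = 3 mice per group throughout.

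ERBB receptors are tyrosine kinases of the cell surface that pair with each other when an EGF-like ligand binds. The ligands are made as membrane-bound precursors and are released by metalloproteases such as ADAM17, so that keratinocytes can signal to themselves and to their neighbours. Downstream, RAS and the kinase ERK switch on early genes, and some of the induced products, Errfi1 (also called MIG6) among them, switch the receptor off again. In stratified epithelia this pathway is known for driving basal cell proliferation, migration and wound closure.

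The libraries held 4606309 to 6286153 reads. All 12 keratinocyte markers of a fixed list passed the filter on low values, and their summed level was 524306 to 694505 in WT and 617400 to 909938 in KO, with 0 of the 12 called. Most of that sum is Krt4, Krt13 and Krt6a. The basal keratins Krt5 and Krt14 lay higher in every KO library than in every WT library (log2 fold changes 1.04 and 1.12, limma adjusted p = 0.118 and 0.0694). Krt15 and Trp63, also of basal cells, lay lower in every KO library (-1.247 and -0.58, limma adjusted p = 0.123 and 0.170). Fibroblast markers summed to 1428 to 1968 in WT and 252 to 1143 in KO. In WT nearly all of that was Dcn, decorin, at 1658, 1329 and 1856, against 530, 195 and 544 in KO. Dcn was the 1 of 4 tested genes called lower (log2 fold change -2.06, limma adjusted p = 0.0152). The other 7 summed to 99.5 to 112 in WT and to 613 in KO replicate 1, where the collagens Col1a1, Col1a2 and Col3a1 were high, against 56.9 and 89.6 in KO replicates 2 and 3. Skeletal muscle markers summed to 1951 in KO replicate 1 and to between 92.2 and 399 in the other libraries, with Acta1 and Tnnc2 listed at 0 in all 6. Leukocyte markers summed to 219 to 257 in WT and 214 to 360 in KO, with Trdc listed at 0, and endothelial markers to 26.1 to 39.6 and 51.5 to 75.8. Nerve and glia markers summed to 53.1 in KO replicate 1 and to at most 7.85 elsewhere, with Tubb3 listed at 0. Taste bud markers summed to 10.5 to 18.3 in WT and 24.1 to 38.1 in KO, mostly through Tas1r1, and 0 of the 8 reached the filter. Salivary gland markers summed to at most 71.5, with 5 listed at 0. Melanocyte markers summed to 32.3 to 74.5 in WT and 69.6 to 102 in KO, with Tyrp1 listed at 0. Of 2 tested genes Mlana was called higher, from 0, 0 and 1.31 to 26.0, 15.5 and 18.1 (limma adjusted p = 0.0135). It met the filter through its KO libraries alone, so only a higher call was open to it. The targeted gene, Ern1, was 94.5 ± 15.2 (SD) across WT and 106 ± 24.5 across KO, with a limma adjusted p = 0.847. Which exons were removed is not stated, so a 3' tag may lie outside them and checks nothing about the genotype.

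Of the 10 genes 1 rose in KO and 0 fell, by limma with Benjamini-Hochberg adjustment over the 10987 genes that passed the filter, as all 10 did. Over all tested genes 1.22% were called higher and 0.583% lower. An unadjusted p under 0.05 was found for 3 of the 10, all ligands, against 13.5% of all genes. In 2 ligands every KO library lay above every WT library, against 9.84% of all genes, and in 0 of the 10 did every KO library lie below, against 9.25%. The median log2 fold change was 0.35 over the 6 ligands, -0.11 over the 3 receptors and -0.01 over all genes, and the difference between ligands and receptors was not tested.

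**Figure D1:**
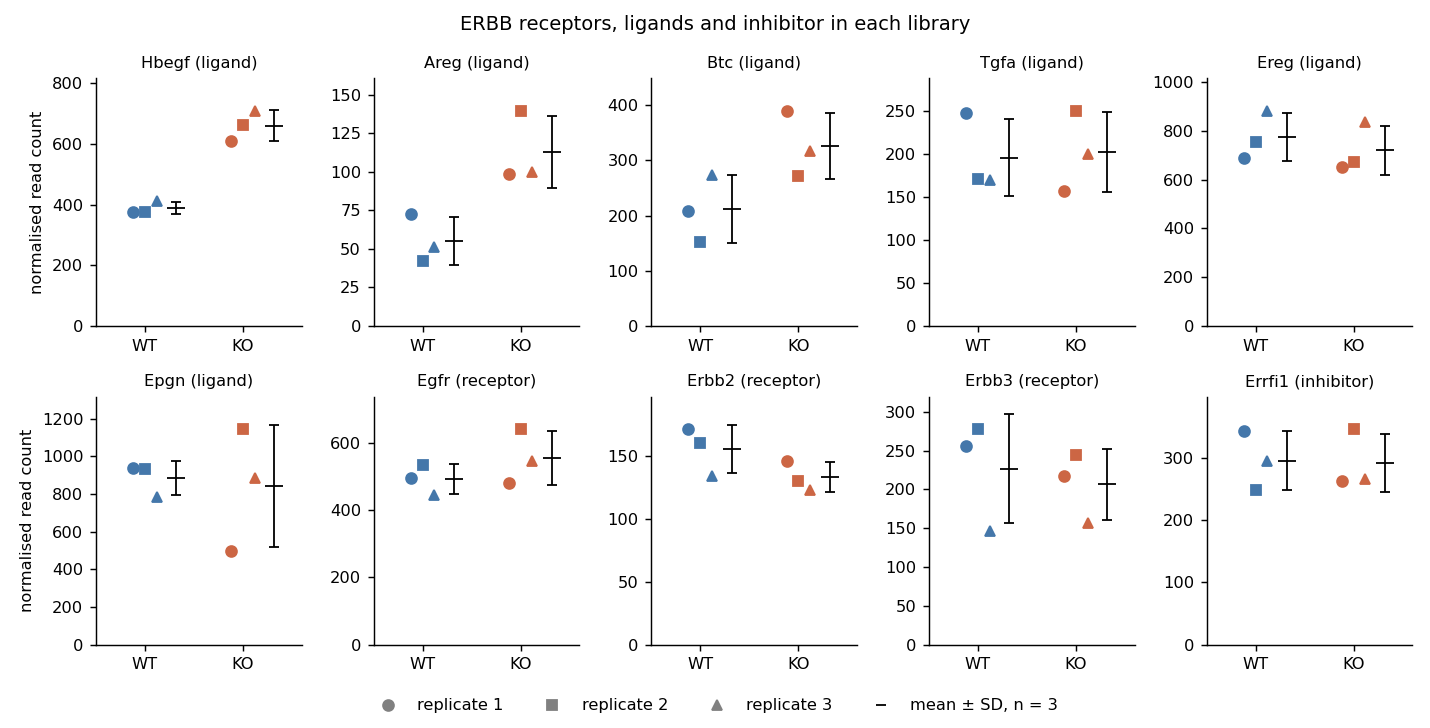
Normalised read count of each of the 10 genes (vertical axes, each from 0) in the 3 WT and 3 KO libraries. Points are libraries, and the black mark is the mean ± SD. Hbegf and Areg are the genes in which all KO points lie above all WT points.

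Hbegf, heparin-binding EGF-like growth factor, is a ligand of EGFR and ERBB4 that keratinocytes make during wound closure. Its normalised counts were 377, 376 and 413 in WT and 608, 661 and 709 in KO, in the order of replicates 1, 2 and 3, which is kept for every gene. The lowest KO library thus stood well above the highest WT library, and the spread within each group was small. The mean went from 389 ± 20.9 (SD) to 659 ± 50.6, or 1.70-fold, a log2 fold change of 0.76 ± 0.16 (SE) with a 95% interval of 0.41 to 1.11 (limma adjusted p = 0.0420). These values rest on 316 to 767 reads per library. The authors' deposited list of called genes holds 341 genes, 3 of them without an adjusted p, beside 55421 rows of normalised counts. Hbegf was the only one of the 10 in it, with a log2 fold change of 0.76 ± 0.20 (SE) and a DESeq2 adjusted p = 0.00718. On the recovered reads it was also called by edgeR (adjusted p = 0.0444, with 1.14% of all genes called higher) and DESeq2 (adjusted p = 0.00729, with 1.97% called higher). The limma call was lost without WT replicate 1, WT replicate 2 or any 1 KO replicate (highest adjusted p = 0.187), while the log2 fold change stayed between 0.71 and 0.82. With every library scaled to the same total it was 0.72 and missed the threshold as well (limma adjusted p = 0.0714).

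The library names come in 2 styles whose meaning the labels do not give. WT replicates 1 and 2 and KO replicate 1 have numbers, and the other 3 libraries have letters. Within the numbered libraries Hbegf was 0.69 higher in KO on the log2 scale, and within the lettered ones 0.73 higher. With the style as a covariate the limma adjusted p was 0.0989. Dcn was called lower in KO, and Mlana, which met the filter through its KO libraries alone, was called higher. Of the basal markers, none of them called, Krt5 and Krt14 lay higher and Krt15 and Trp63 lower in every KO library. The sum of the endothelial markers was higher in KO, with Pecam1 its largest part. Only Pecam1 of that list was tested, and it was not called (limma adjusted p = 0.283). The part of these shifts in the Hbegf difference was not tested. In RNA from a whole tissue layer, more cells of a type and more RNA per cell cannot be told apart.

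Areg, amphiregulin, is a low-affinity ligand of EGFR and an autocrine growth factor of keratinocytes. It had normalised counts of 72.6, 41.9 and 50.9 in WT and 98.6, 140 and 100.1 in KO. The groups did not overlap, and the KO mean of 113 ± 23.3 was 2.05-fold the WT mean of 55.1 ± 15.8. This was the largest fold of the 10 genes but not a call, with a log2 fold change of 1.04 ± 0.26 (SE) and a limma adjusted p = 0.0838. DESeq2 called it higher (log2 fold change 1.04, adjusted p = 0.0363) and edgeR did not (adjusted p = 0.0907). Areg is the lowest of the 10 in level and rests on 39 to 162 reads per library. Without WT replicate 1 it passed (limma adjusted p = 0.0498), and without WT replicate 2 its adjusted p was 0.279. The difference was 0.83 on the log2 scale within the numbered libraries and 1.20 within the lettered ones.

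Btc, betacellulin, binds EGFR and ERBB4. Its normalised counts were 209, 152 and 274 in WT and 390, 271 and 316 in KO. The groups touched, since WT replicate 3 stood slightly above KO replicate 2. The means were 212 ± 61.3 and 326 ± 59.9, with a log2 fold change of 0.64 ± 0.24 (SE), a 95% interval of 0.12 to 1.17 and a limma adjusted p = 0.248. The difference was 1.13 within the numbered libraries and 0.10 within the lettered ones, so its size depended on which libraries were compared.

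Tgfa, transforming growth factor alpha, is the classical autocrine EGFR ligand of epidermis. It stood at 247, 170.2 and 169.8 in WT and 157, 249.9 and 200.1 in KO. The high and low libraries were mixed between the groups, and the log2 fold change was 0.05 with a 95% interval of -0.46 to 0.55 (limma adjusted p = 0.958). Ereg, epiregulin, a ligand of EGFR and ERBB4, stood at 687, 756 and 883 in WT and 653, 671 and 835 in KO. Its log2 fold change was -0.11 with a 95% interval of -0.50 to 0.29 (limma adjusted p = 0.854). Epgn, epigen, an EGFR ligand made in epithelia, stood at 937, 935 and 782 in WT and 497, 1144 and 885 in KO. The lowest and the highest libraries were both KO, namely replicates 1 and 2. The coefficient of variation was 38.7% in KO against 10.01% in WT, and the log2 fold change was -0.15 with a 95% interval of -0.75 to 0.45 (limma adjusted p = 0.873). Its sign turned without KO replicate 1 (0.19), the library with the high muscle transcripts, whose part in the Epgn value was not tested.

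**Figure D2:**
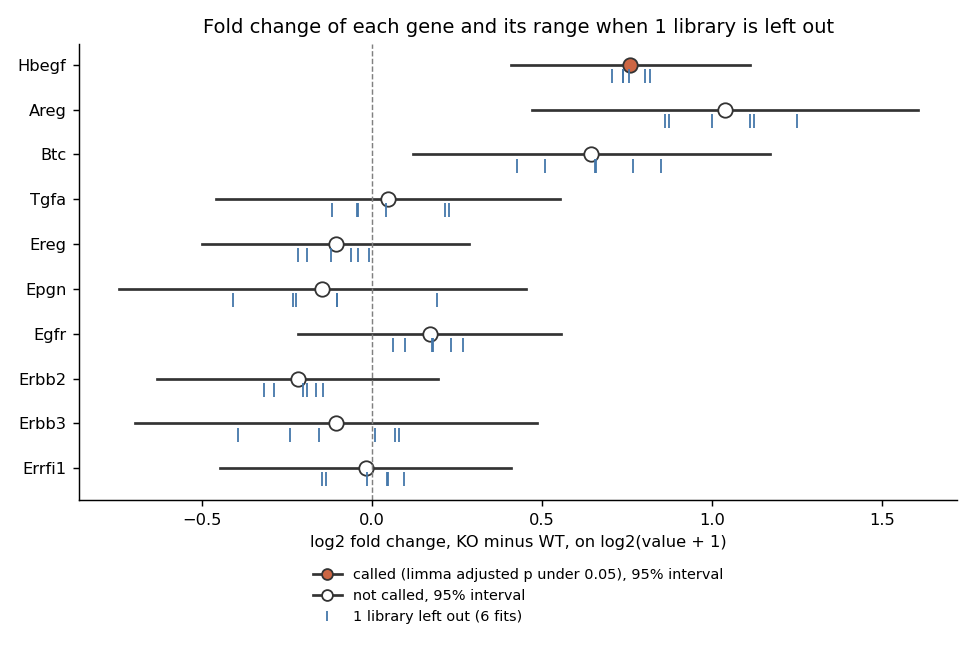
Log2 fold change of KO minus WT (horizontal axis) for each gene, with its 95% interval as a line and the 6 fits that leave out 1 library as ticks. Hbegf is the filled point, and its ticks span 0.71 to 0.82, while the ticks of Tgfa, Epgn, Erbb3 and Errfi1 fall on both sides of 0.

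As the kit makes 1 tag per mRNA, counts of the ligands were added and compared as tags, with no division by transcript length. The 6 ligands summed to 2530, 2430 and 2573 normalised counts in WT and 2404, 3138 and 3046 in KO. The sum was thus highest in KO replicates 2 and 3 and lowest in KO replicate 1, and the groups overlapped. Epgn and Ereg together made 66.2% ± 2.95 of the ligand tags in WT and 54.1% ± 5.42 in KO. Hbegf made 15.5% ± 0.57 in WT and 23.2% ± 2.11 in KO, and Areg 2.19% ± 0.60 and 3.95% ± 0.60. The shares of Hbegf did not overlap between the groups (14.9% to 16.0% and 21.1% to 25.3%). They restate the Hbegf difference relative to the other ligands and were not tested.

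**Figure D3:**
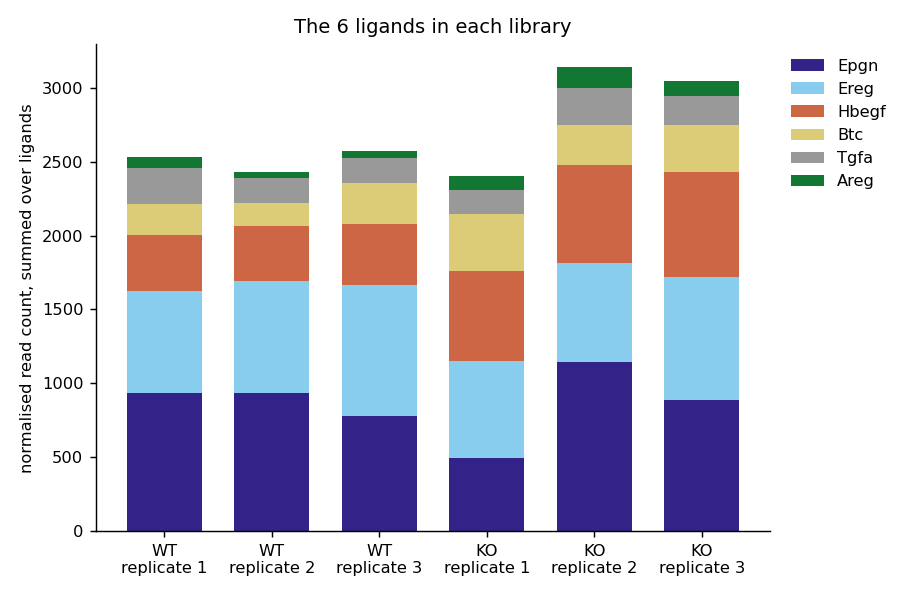
Normalised read counts of the 6 ligands stacked in each library (vertical axis from 0). Epgn and Ereg are the largest layers in each library except KO replicate 1, where the Hbegf layer is thicker than that of Epgn, and the Hbegf layer is thicker in each KO library than in each WT library.

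The receptors did not pass the test. Egfr, the receptor of all 6 ligands, stood at 498, 537 and 445 in WT and 482, 642 and 546 in KO. Its groups overlapped, and the log2 fold change was 0.17 with a 95% interval of -0.22 to 0.56 (limma adjusted p = 0.748). Erbb2, which binds no known ligand and acts as a partner of the other receptors, stood at 172, 161 and 135 in WT and 146, 130.1 and 122.9 in KO. Its values leaned lower in KO, with WT replicate 3 inside the KO range and a log2 fold change of -0.22 (95% interval -0.63 to 0.19, limma adjusted p = 0.679). Erbb3, a neuregulin receptor with little kinase activity of its own, stood at 256, 277 and 146 in WT and 218, 245 and 156 in KO. Its low libraries were replicate 3 of either group, and the log2 fold change of -0.11 (limma adjusted p = 0.912) turned to 0.063 with the name style as a covariate. Within the numbered libraries it was -0.29 and within the lettered ones 0.42.

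Errfi1, the inhibitor that binds the EGFR kinase domain and is induced by EGFR signalling, stood at 342, 248.7 and 295 in WT and 263, 346 and 265 in KO. The group means were 295 ± 46.7 and 291 ± 47.1. Its log2 fold change was -0.02 with a 95% interval of -0.45 to 0.41 (limma adjusted p = 0.979).

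In normalised counts, averaged over all 6 libraries, the order was Epgn (863), Ereg (748), Egfr (525), Hbegf (524), Errfi1 (293), Btc (269), Erbb3 (216), Tgfa (199), Erbb2 (144) and Areg (83.9). Epgn had a higher mean than 93.3% of the tested genes and Areg than 51.2%. The steps from Ereg to Egfr and from Hbegf to Errfi1 were the ones where the ranges over the 6 libraries did not overlap. The other neighbours in the order were not separated by their ranges, and Egfr exceeded Hbegf in 3 of 6 libraries. In each WT library Egfr was above Hbegf and in each KO library Hbegf was above Egfr.

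Epgn, Ereg, Areg and Btc lie side by side on chromosome 5. In the GENCODE M21 annotation of GRCm38 they span 91027464 to 91035215 (Epgn), 91074622 to 91093646 (Ereg), 91139599 to 91148432 (Areg), all on the plus strand, and 91357261 to 91402994 (Btc, minus strand), which is 375.5 kb from end to end. No source used here names the authors' build, and these positions serve to locate the genes. The neighbours differed in their values: Areg and Btc had log2 fold changes of 1.04 and 0.64, and Ereg and Epgn, closer to each other, -0.11 and -0.15. Mthfd2l, a mitochondrial folate enzyme and the next coding gene before Epgn, had -0.41 (limma adjusted p = 0.612), and Parm1, the next after Btc, -0.21 (limma adjusted p = 0.863). None of these 6 coding genes passed the test.

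**Figure D4:**
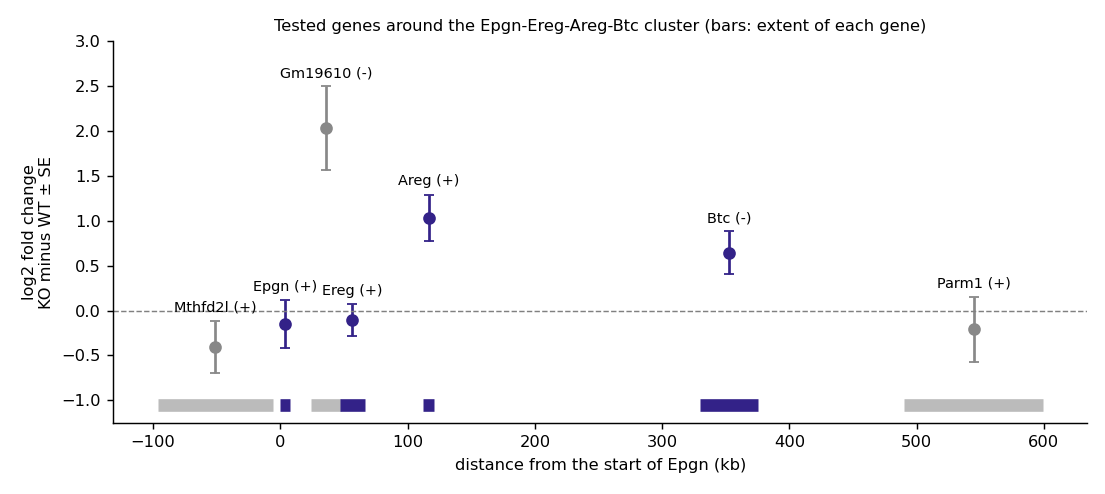
Log2 fold change of KO minus WT ± SE (vertical axis) of the tested genes around the ligand cluster, by distance from the start of Epgn in kb. Dark bars and points are the 4 ligands, and pale ones other genes. Areg and Btc sit above 0 and Epgn and Ereg near it. Gm19610, which is antisense to the start of Ereg, is the highest point at 2.03 and met the filter through its KO libraries alone.

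The start regions of the pair of cluster ligands with the higher fold changes are shown to set the Areg promoter beside that of Btc. Each run is the 250 bases before the RefSeq start (GRCm38.p6), written 5′ to 3′ on the gene's own strand, and capitals mark matches on either strand to TGACGTCA (the cAMP response element, CRE), TGANTCA (AP-1), GGGCGG (the SP1 GC box) or TATAAA (the core promoter box of that name), motifs that can share bases.

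Areg, chr5:91139349-91139598, plus strand: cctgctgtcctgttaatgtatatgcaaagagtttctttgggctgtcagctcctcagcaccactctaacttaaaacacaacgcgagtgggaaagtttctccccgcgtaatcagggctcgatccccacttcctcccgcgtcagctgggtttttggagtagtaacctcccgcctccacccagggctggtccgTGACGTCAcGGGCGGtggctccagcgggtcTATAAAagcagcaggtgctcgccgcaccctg

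Btc, chr5:91402995-91403244, minus strand: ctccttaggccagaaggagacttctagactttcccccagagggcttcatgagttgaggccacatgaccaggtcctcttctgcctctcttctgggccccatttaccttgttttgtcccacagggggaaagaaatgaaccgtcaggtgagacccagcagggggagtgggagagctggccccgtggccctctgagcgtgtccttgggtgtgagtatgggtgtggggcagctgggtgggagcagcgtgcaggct

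Areg held a CRE match that begins 61 bases before the start, a GC box match at 52 and a TATA match at 31. Btc held 0 matches to the 4 motifs. Of 32851 such windows in the RefSeq set, 1.55% held the CRE, 6.75% the AP-1 letters, 32.7% the GC box and 12.4% the TATA letters. These matches describe the sequence in this window and were not tested for binding.

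The remaining genes lie elsewhere. Tgfa is on chromosome 6 (86195223 to 86275719, plus strand), Erbb3 on chromosome 10 (128567523 to 128589652, minus strand), Egfr and Erbb2 on chromosome 11 (16752203 to 16918158 and 98412470 to 98437716, both plus strand), Errfi1 on chromosome 4 (150853919 to 150868892, plus strand) and Hbegf on chromosome 18 (36504927 to 36515805, minus strand). The strand setting of the counting is not given. The end of Erbb2 overlaps the end of Mien1 on the other strand by a few bases, so tags there may not be separable, and Egfr, Ereg, Tgfa and Errfi1 each overlap an annotated gene on the other strand.

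The rest of the pathway was described with 83 genes in 6 lists by role, of which 73 were tested. By limma 2 were higher in KO and 0 lower, against 1.22% and 0.583% of all genes, and the median log2 fold change was 0.06. In 10 of the 73 every KO library lay above every WT library and in 4 below, against 9.84% and 9.25% of all genes. Among the other ligands and the fourth receptor 0 of 4 tested genes passed. Nrg1, neuregulin, a ligand of ERBB3 and ERBB4, stood at 188, 163 and 150.2 in WT and 174, 310.3 and 277 in KO. Its KO replicates 2 and 3 were high and KO replicate 1 was not, for a log2 fold change of 0.57 (limma adjusted p = 0.315). Erbb4 stood at 22.6, 18.3 and 11.8 in WT and 11.9, 7.76 and 7.62 in KO. Those groups touched, and its log2 fold change of -0.86 did not pass (limma adjusted p = 0.403). Egf itself was low, at 6.89 to 15.7 in the 6 libraries.

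In the list for ligand release 0 of 8 passed, with a median of 0.15. Rhbdf1 and Rhbdf2, the iRhom proteins that bring ADAM17 to the cell surface, differed by 0.31 and 0.69 on the log2 scale, with limma adjusted p = 0.613 and 0.499. Of the adaptors and relay kinases 0 of 24 passed, with a median of 0.00089 on the log2 scale. The 2 with the lowest p were Map2k1, the kinase MEK1, at -0.58, and Gab1, a docking protein of EGFR, at -0.60 (limma adjusted p = 0.364 for each). With a weight per library both passed as lower (-0.82 and -0.81, limma adjusted p = 0.0437 and 0.0482). That fit called 590 genes in either direction, against 198 with unweighted limma. In receptor trafficking and ubiquitination 0 of 13 passed. Cbl and Cblc, ubiquitin ligases that send EGFR to degradation, were each 0.35 higher (limma adjusted p = 0.438 and 0.443). In both, every KO library lay above every WT library (9.84% of all genes). Of the negative regulators 0 of 13 passed, with a median of 0.06. In 2 of them every KO library lay below every WT library (9.25% of all genes) and in 1, Socs5 at 0.30, above (9.84%). Those 2 were Spred2 and Spry2, inhibitors of RAS signalling, at -0.65 and -0.37 (limma adjusted p = 0.293 and 0.503).

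Both called genes of the pathway lists stood in the list of early genes induced through ERK, where 2 of 11 tested genes rose and 0 fell (1.22% and 0.583% of all genes), with a median log2 fold change of 0.76 against -0.01 over all genes. In 6 of the 11 every KO library lay above every WT library, as in 9.84% of all genes. The log2 fold changes of the 11 ran from -0.22 to 1.84. The list was chosen with earlier results of these data known, so these counts describe it and are no test of an excess. Ccnd1, cyclin D1, which moves cells from G1 into S phase, stood at 68.8, 94.2 and 78.4 in WT and 444, 249.9 and 216 in KO. All KO libraries were far above WT, with KO replicate 1 the highest, and the log2 fold change was 1.84 ± 0.27 (SE, limma adjusted p = 0.00773). Etv4, an ETS transcription factor, stood at 12.3, 17.5 and 17.0 in WT and 75.8, 44.8 and 54.3 in KO. Its groups did not overlap, and the difference was 1.82 ± 0.30 (SE) on the log2 scale with a limma adjusted p = 0.0139. Ccnd1 passed whichever library was left out, and Etv4 missed the threshold without KO replicate 1 (limma adjusted p = 0.0688) or without KO replicate 3 (0.0654). The count of the list was thus 1 when 1 of those 2 libraries was left out, and 4 with DESeq2 (1.97% of all genes called higher). It was 3 without WT replicate 3 (186 genes called in either direction) and with the replicate number as a covariate (178). It was 5 with a weight per library, where 590 genes were called in either direction, against 198 with unweighted limma. Among genes that reached 50 it was 1 of 7, with 152 genes called in either direction. KO replicate 1, the highest library for both genes, is also the one with the high muscle, collagen and nerve transcripts. Without it the log2 fold changes were 1.53 for Ccnd1 and 1.62 for Etv4, and the part of those transcripts was not tested. Many of these genes also answer to other signals, and a part of ERBB signalling in their values was not tested.

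**Figure D5:**
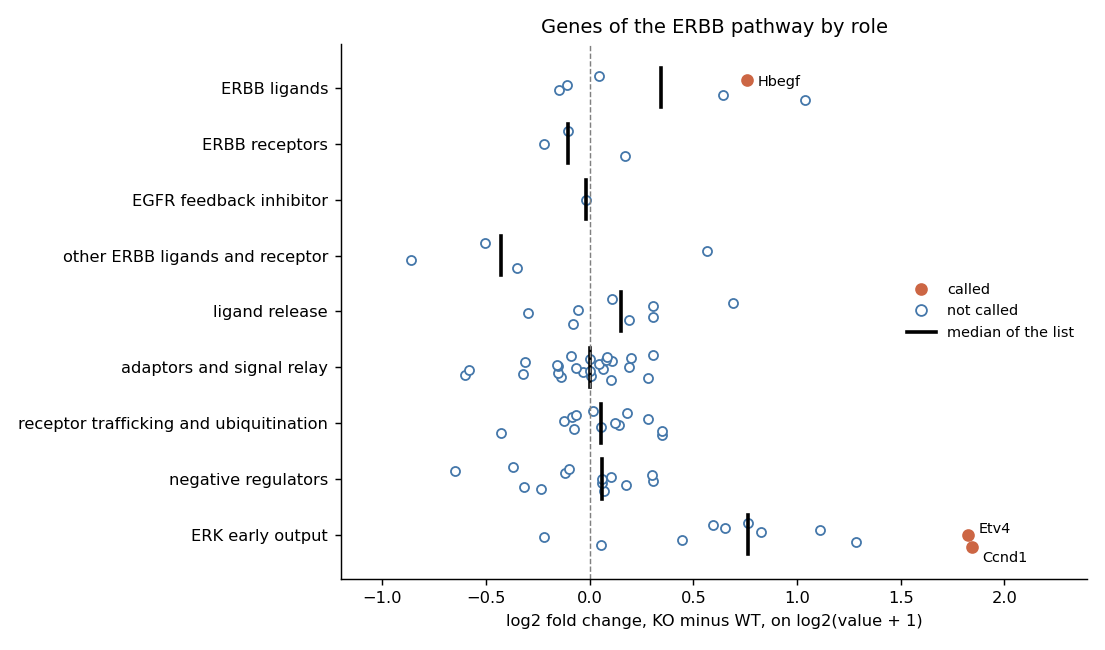
Log2 fold change of KO minus WT (horizontal axis) of each tested gene, by role. Filled points are called genes, and black bars are the median of each list. The 3 filled points are Hbegf, Etv4 and Ccnd1, and the list of early ERK genes has the rightmost median, 0.76.

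The genes whose values over the 6 libraries ran most like those of Hbegf were Rnf169, a protein of DNA break repair, Mgmt, a DNA repair methyltransferase, and Ccng1, cyclin G1, at root mean square distances of 0.10, 0.17 and 0.19 SD units among 6625 genes ranked. All 3 were called higher in KO (1.22% of all genes), by 1.75, 1.96 and 2.30 on the log2 scale against 0.76 for Hbegf (limma adjusted p = 0.00113 for each). They were chosen by likeness to a gene with a small spread within groups and every KO library above WT. Their direction and, largely, their calls thus follow from the choice, and the share of all genes is no yardstick for them. The genes nearest to Egfr were Tbc1d23, Rab8b and Stau2, at 0.17, 0.19 and 0.19. These had log2 fold changes of 0.20, 0.27 and 0.23, none of which passed limma. With 6 libraries, likeness of this kind describes the scaled values of those libraries and little more.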

How the data were processed

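Expression was measured in tongue epithelium of 6 mice, 3 per genotype, grouped and numbered by the sample titles. The authors deposited normalised counts per gene and library (a signal on a linear scale, per the file headers), and a list of their called genes, holding mean signal, log2 fold changes with standard errors, a Wald score, p-values and q-values. The submitters' processing notes list FastQC, STAR, featureCounts and DESeq2 and give no version. The values were whole multiples of 1 step per library for 100% of entries within 0.01 of a whole read, so whole reads were recovered by division for the count tests. Per library, 0 reads allow a value of up to 2.59 to 3.92 (3 reads, counting error only).

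Genes that reached 10 in 3 or more libraries were kept, log2(value + 1) was tested with limma 3.58.1 (intensity trend, two-sided, Benjamini-Hochberg at 0.05, R 4.3.3), and edgeR 4.0.16 and DESeq2 1.42.0 were run as alternatives. Fold changes on this scale understate those of genes with low values. Named genes are the 10 members, Ern1, the 2 genes with the lowest p and each called gene of every pathway list, and the 3 genes nearest to Hbegf and to Egfr. Other genes at the chromosome 5 cluster, the low Egf, Socs5 and the single marker genes were named after their values were seen. Members and lists were chosen with earlier results of these data known. Mice are separate animals, and an exact permutation test of 3 against 3 cannot go below 0.1, so none was used. RefSeq start regions were used for 7 of the 10 genes and not for Hbegf, Ereg and Erbb3, so the motif matches leave out the called gene.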

Additional observations from a re-analysis of the deposited data

How the results depend on the processing

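Over all genes 198 passed with limma, and 590 with a weight per library, 368 with DESeq2, 82 with the name style as a covariate and 68 to 186 when 1 library was left out. The number of the 10 genes called higher was 1, and it was 3 with a weight per library (Hbegf, Areg and Btc), 2 with DESeq2 (Hbegf and Areg), 0 with equal totals, 0 with the replicate block, 0 with the name style, and 0 to 1 when 1 library was left out. The 1 was Areg without WT replicate 1 and Hbegf without WT replicate 3. None of the 10 was called lower in any of these fits. Signs turned for Ereg with a weight per library (0.053) and Erbb3 with the name style (0.063), and with 1 library left out for Tgfa (-0.12 to 0.22), Epgn (-0.41 to 0.19), Erbb3 (-0.39 to 0.080), Errfi1 (-0.15 to 0.092) and Rab8b (-0.016 to 0.49). The cause was not tested. Replicate numbers share only a number: deviations from the group means of same-numbered libraries correlated at -0.25, 0.03 and 0.28 across genes, and WT replicate 1 correlated best with KO replicate 2 (0.41). With the replicate block 178 genes passed and Hbegf had a limma adjusted p = 0.0666. Of 519 comparisons of a named gene with an alternative, 490 kept sign and side of the threshold. Among the 10 genes Areg had the fewest reads (39 to 162).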

Other observations

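Gm19610, an antisense gene that overlaps the start of Ereg on chromosome 5 and runs the other way, had normalised counts of 5.65, 5.24 and 2.61 in WT and 15.2, 29.3 and 20.01 in KO. It met the filter through its KO libraries alone, so only a higher call was open to it. All KO libraries lay above WT (9.84% of all genes), the log2 fold change was 2.03 ± 0.47 (SE), and it did not pass (limma adjusted p = 0.0622). Ereg, at over 650 in every library, showed no such difference (log2 fold change -0.11). The annotated overlap, 91074622 to 91074773, lies at the start of both genes, and the kit reads close to the poly(A) end. Whether the counting could separate the strands there is not given.

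A CRE match (TGACGTCA) like that of Areg was also found in one of the 2 start regions listed for Errfi1, beginning 51 bases before that start, and in none of the windows of Tgfa, Btc, Epgn, Egfr and Erbb2. Areg had a log2 fold change of 1.04 and Errfi1 of -0.02.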
